A study of Mus musculus with 4 samples.

Results

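Genes of antigen presentation were followed in RNA from fresh mouse pancreatic islets, the endocrine cell clusters of that organ, with and without the vitamin K-dependent carboxylase gene Ggcx. The members were the protein-coding rows of the deposited table whose symbol starts with H2-, the prefix of the mouse major histocompatibility complex (MHC), together with 16 listed genes of peptide supply, peptide loading and MHC regulation. This gave 50 genes of the 55487 in the table, 34 by the H2- prefix and all 16 listed ones, and 39 of them lie on chromosome 17, which carries the MHC. For group statistics a gene needed a normalized read count of 10 or more in 2 or more of the 4 libraries. That filter kept 35 members (19 with an H2- name and 16 listed), and none of them passed through 1 genotype alone.

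All mice were C57BL/6, 30 weeks old and homozygous for a floxed Ggcx allele, so the controls also carried the floxed gene. The control group was Ggcx flox/flox without Cre, and the knockout group was Ggcx flox/flox; Pdx1-Cre, in which the Pdx1 promoter drives Cre recombinase in the pancreatic lineage. Immune, endothelial and stromal cells of an islet lie outside that lineage. Each genotype had 2 libraries, and each library pooled islets of 2 mice. No library carried Pdx1-Cre with an intact Ggcx, so the transgene and the loss of Ggcx cannot be told apart. The control libraries are called here control 2 and control 3, after their column numbers in the deposited table, which differ from the numbers in the labels.

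MHC class I molecules sit on nearly all nucleated cells and show peptides from proteins made inside the cell to CD8+ T cells. The proteasome cuts these peptides, the Tap1-Tap2 transporter carries them into the endoplasmic reticulum, and tapasin and related editors load them onto a heavy chain paired with beta-2 microglobulin. MHC class II molecules are restricted to specialised antigen-presenting cells such as macrophages, dendritic cells and B cells, where the invariant chain Cd74 escorts them to endosomes. In islets, class I on beta cells is known as a target of autoreactive CD8+ T cells in type 1 diabetes, and resident macrophages are the main cells with class II in a healthy islet. In bulk RNA, fewer cells of a type and less RNA per cell cannot be told apart.

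Promoter sequence is shown first for 5 members, because class I, transporter and class II promoters differ in the elements through which they are known to be regulated. The RefSeq promoter table (GRCm38.p6, 250 bases before to 50 bases from each start) held 45 entries for 41 of the 50 members, 27 of them tested. Capitals below mark matches on either strand to the core of the interferon-stimulated response element, GAAANNGAAA, and to the CCAAT box, CCAAT. The 250 bases before the start are printed. The windows are B2m at chr2:122147437-122147686 (plus strand), H2-T22 at chr17:36042743-36042992 (minus strand), H2-T23 at chr17:36032702-36032951 (minus strand), Tap1 at chr17:34187306-34187555 (plus strand) and H2-Aa at chr17:34287824-34288073 (minus strand).
B2m: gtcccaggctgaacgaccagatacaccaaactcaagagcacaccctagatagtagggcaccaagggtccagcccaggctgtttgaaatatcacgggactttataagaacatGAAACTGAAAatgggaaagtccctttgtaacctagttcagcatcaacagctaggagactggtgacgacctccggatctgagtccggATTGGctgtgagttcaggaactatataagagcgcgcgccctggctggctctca
H2-T22: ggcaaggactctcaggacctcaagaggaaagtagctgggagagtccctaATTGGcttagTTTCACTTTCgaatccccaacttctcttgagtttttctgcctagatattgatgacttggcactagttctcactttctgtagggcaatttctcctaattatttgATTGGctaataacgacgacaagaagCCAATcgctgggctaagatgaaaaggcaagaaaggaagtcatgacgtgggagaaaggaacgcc
H2-T23: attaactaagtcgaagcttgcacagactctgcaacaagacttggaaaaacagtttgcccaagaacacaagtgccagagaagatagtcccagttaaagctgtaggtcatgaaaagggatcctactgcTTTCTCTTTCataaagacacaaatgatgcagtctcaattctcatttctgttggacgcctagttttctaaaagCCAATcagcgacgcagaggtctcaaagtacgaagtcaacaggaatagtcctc
Tap1: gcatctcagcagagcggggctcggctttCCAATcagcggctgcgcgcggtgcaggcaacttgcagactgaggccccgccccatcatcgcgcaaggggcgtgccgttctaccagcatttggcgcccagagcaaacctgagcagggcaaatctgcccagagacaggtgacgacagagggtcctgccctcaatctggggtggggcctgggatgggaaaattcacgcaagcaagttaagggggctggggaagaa
H2-Aa: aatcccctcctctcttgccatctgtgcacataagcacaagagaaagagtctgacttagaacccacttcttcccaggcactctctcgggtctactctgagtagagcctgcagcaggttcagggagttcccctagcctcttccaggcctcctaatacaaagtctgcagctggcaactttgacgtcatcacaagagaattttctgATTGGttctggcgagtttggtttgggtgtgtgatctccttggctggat
The interferon-stimulated core began 139 bases before the start in B2m, 191 bases before it in H2-T22 and 124 bases before it in H2-T23. No other class I chain with an entry had an exact match to this string, H2-K1 and H2-D1 included. Only exact matches were searched, so near matches were missed. The windows of H2-K1 and H2-D1 both hold TTTCACTTC, where H2-T22 has TTTCACTTTC. The search therefore does not show that the other class I promoters lack such an element. The exact string was found in 5 of the 45 member entries (11.1%, with Erap1 and Psme1 beside the 3 above). It was found in 3.44% of all 32851 entries of that length. CCAAT on either strand was found in 34 of the 45 (75.6%) against 37.4% of all entries. TGACG, the core letters of the cyclic AMP response element that class I and class II promoters are known to use, was found in 18 of the 45 (40.0%) against 20.8%. The interferon-gamma activated site, TTCNNNGAA, was found in 4 of the 45 (8.89%) against 8.30%. Neither TGACG nor TTCNNNGAA is in capitals, and the motifs can overlap. The starts of Tap1 and Psmb9, which face away from each other, lie 226 bases apart, so their 2 windows share 275 bases (chr17:34187306-34187580).

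The libraries held 47624630 to 51756221 reads assigned to genes, of which members took 0.157% to 0.175%, so counting error matters little except for the lowest members. Ggcx, the check of the labels, had normalized counts of 3971 and 3981 in the controls and 234 and 643 in the knockouts (log2 fold change -3.35 ± 0.35 SE, limma adjusted p = 0.0163). Markers of beta cells, the main cells of an islet, made up 21.0% to 22.5% of each library. Control 3 stood apart for the members: it held the lowest of the 4 values in 22 of the 35 tested members (62.9%) and the highest in 0, while it held the lowest value in 26.4% of all 16589 tested genes. The medians, signs and overlap counts of all tested members and of the class I chains are given with and without it. For single members the value of each library is printed, and ratios of summed counts include control 3.

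The most abundant members per length were class I genes and Cd74. Levels here are the mean normalized count over the 4 libraries divided by exon length, and the median of all tested genes was 153 per kb. H2-K1 had 5963 per kb, B2m 5851 and H2-D1 5593. These 3, the classical class I heavy chains and their shared light chain, overlapped in their library values and did not separate from each other. Cd74 followed at 4732 per kb, its range under that of H2-D1 and overlapping that of B2m. After it came H2-Q2 at 1942, Tapbp at 1470 and the class II beta chain H2-Eb1 at 1415. Among 34 pairs of neighbours in this order, 11 had ranges that did not overlap. The lowest tested members were the transactivators Nlrc5 (5.20 per kb) and Ciita (3.20) and the class II editor subunit H2-Ob (2.84).

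**Figure D1:**
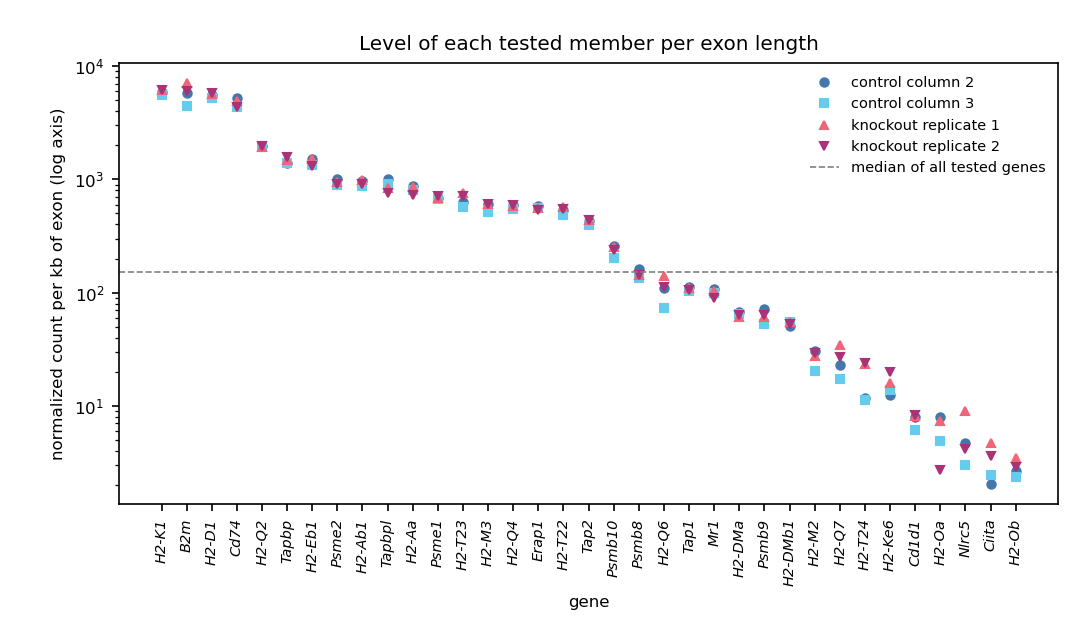
Normalized count per kb of exon (log axis) of the 35 tested members in each of the 4 libraries, ordered by their mean, with the median of all tested genes as a dashed line. H2-K1, B2m, H2-D1 and Cd74 sit near the top, between 4353 and 7108 per kb in every library, and Nlrc5, Ciita and H2-Ob sit at the bottom, at 8.95 per kb or less.

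Ratios between genes per length were steady between libraries for some pairs and less so for others. H2-D1 stood at 0.929 to 0.948 times H2-K1 in the 4 libraries, and Cd74 at 5.49 to 5.93 times H2-Aa. The immunoproteasome subunits, which replace standard catalytic subunits in immune and interferon-treated cells, were the minor form in these islets. Psmb8 reached 8.16% to 9.98% of Psmb5, Psmb9 3.41% to 4.50% of Psmb6, and Psmb10 25.8% to 31.6% of Psmb7. The size of these shares depends on the length used, which joins all annotated exons (3381 bases for Psmb8 and 3660 for Psmb9). Without division by length, the control means were 497 for Psmb8 and 1441 for Psmb5. They were 228 for Psmb9 and 2945 for Psmb6, and 395 for Psmb10 and 2798 for Psmb7. For B2m the ratio to H2-K1 was less steady, at 0.808 in control 3, 0.970 in control 2, 0.978 in knockout replicate 2 and 1.15 in knockout replicate 1.

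Knockout and control islets were then compared for every tested member. No member passed the test. Of 12 tested class I chains, 11 had a log2 fold change above 0, with a median of 0.16, but without control 3 this was 8 of 12 with a median of 0.07. The 4 class II chains and the 5 immunoproteasome genes had medians of -0.03 and 0.01, and their ranges overlapped between genotypes. These medians near 0 also moved with the libraries used. The class II median was -0.13 without control 3 and 0.07 without control 2. It was -0.13 without knockout replicate 1 and 0.06 without knockout replicate 2. For the 10 supply, loading and immunoproteasome genes together it was -0.08 without control 3 and 0.08 without control 2. Log2 fold changes compare knockout with control, positive where knockout is higher, as differences of log2(normalized count + 1) with standard errors (SE). With limma and Benjamini-Hochberg adjustment over the 16589 genes, 0 of the 35 members were higher (background 0.247% of tested genes) and 0 were lower (background 0.374%). At an unadjusted p under 0.05 there were 8 of 35 (22.9%), against 14.1% of all tested genes: H2-T23, H2-T24, B2m, H2-Q7, Ciita, Tapbp and H2-Q6 above 0 and Tapbpl below 0. edgeR on the recovered reads called 0 members and DESeq2 called 1, H2-T23. DESeq2 gave no adjusted p for H2-T24, Ciita, Nlrc5, H2-M2, Cd1d1, H2-Oa, H2-Ob and H2-Ke6, so it could not call these. In the authors' deposited table, 27 members had an adjusted p and 0 of them were under 0.05, beside 314 of 13381 genes (2.35%). Its lowest value among members was 0.0553, for H2-T23.

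The 35 members lay mostly above 0 in this comparison, with 24 above and 11 below and a median of 0.10, while 50.1% of all tested genes lay above 0, with a median of 0.00. Both knockout libraries exceeded both controls in 14 of the 35 (40.0%), and the same was true of 22.0% of all tested genes. Both lay under both controls in 3 (8.57%: Erap1, Tapbpl and H2-DMa), against 23.0% of all tested genes. The median and the signs rested on control 3: without it the median was -0.00, with 17 members above 0 and 18 below, and without control 2 it was 0.15. Without control 3, both knockouts exceeded the remaining control in 15 members (42.9%, against 36.7% of all tested genes) and lay under it in 16 (45.7%, against 37.4%). Without control 2, those counts were 25 (71.4%, against 36.6%) and 3 (8.57%, against 37.7%). Without knockout replicate 1, the other knockout lay under both controls in 8 (22.9%, against 36.3%). The smallest two-sided p that an exact permutation test of 2 libraries against 2 can give is 0.333, so none is given for single genes.

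**Figure D2:**
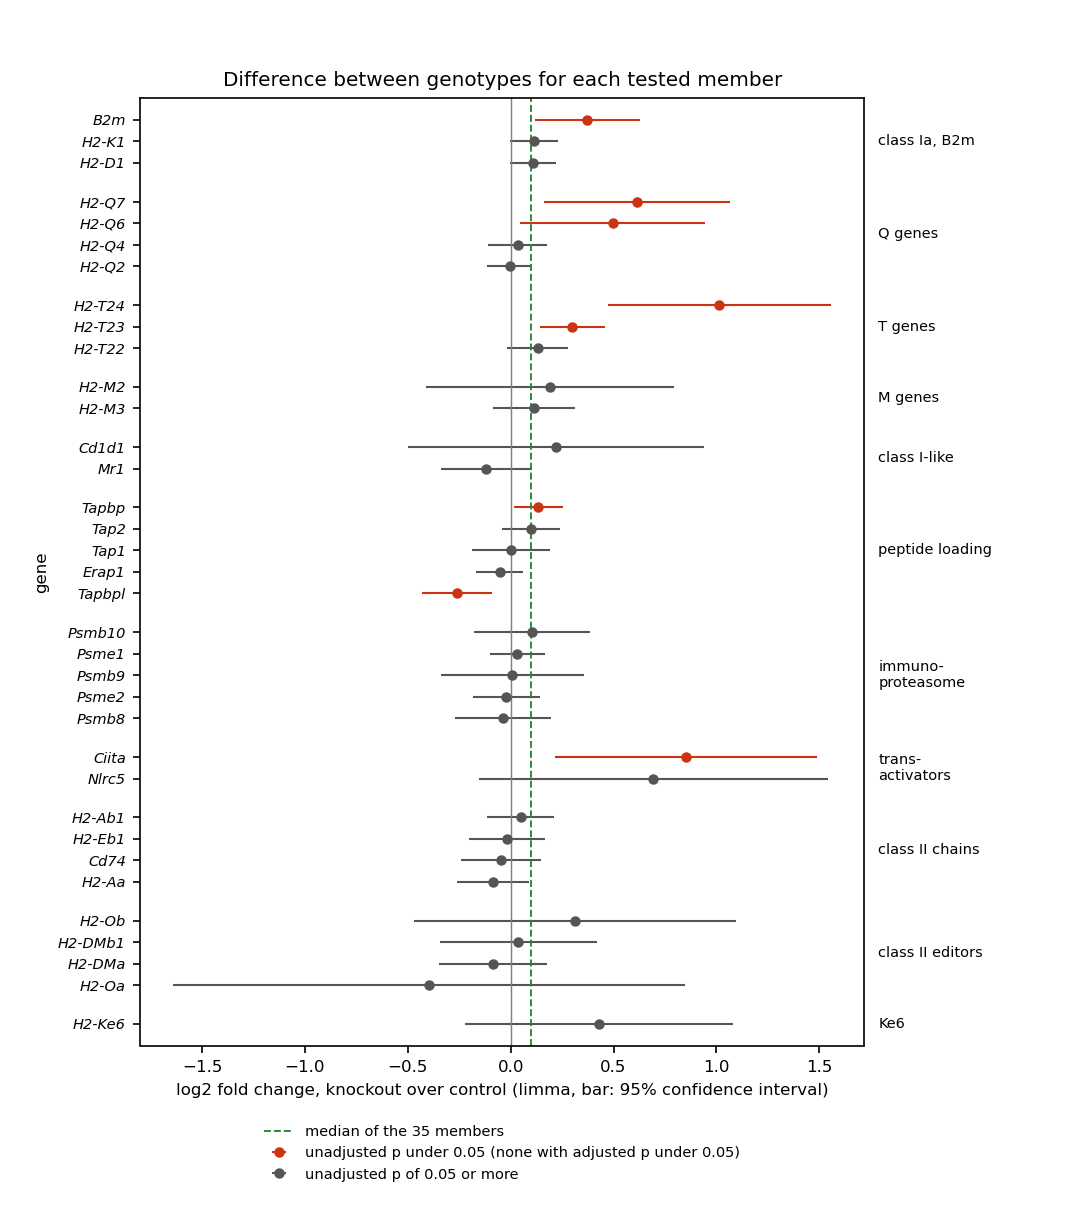
Log2 fold change of knockout over control for the 35 tested members (limma, bars are 95% confidence intervals), grouped by role, with the members at an unadjusted p under 0.05 in red and the members' median of 0.10 as a dashed line. The red points above 0 are class I chains, Tapbp and Ciita, the only red point below 0 is Tapbpl, and no member had an adjusted p under 0.05.

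Among the classical class I genes, B2m encodes the light chain that every class I heavy chain needs to reach the cell surface (ENSMUSG00000060802, chromosome 2, 122147686 to 122153083, plus strand). Its normalized count was 4955 and 3840 in the controls and 6112 and 5219 in the knockouts. Both knockout libraries lay above both controls, with 4397 ± 788 (SD, n = 2) in control and 5666 ± 632 (SD, n = 2) in knockout islets. Control 3 was the lowest library (3840), and knockout replicate 2 (5219) was close to control 2 (4955). The log2 fold change was 0.37 ± 0.11 SE, with a limma adjusted p of 0.174. The adjusted p was 0.0156 without control 2 and 0.0280 without knockout replicate 2, so the call turned on which library was left out.

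H2-D1 and H2-K1, the H2-D and H2-K heavy chains that present peptides to CD8+ T cells, differed less. H2-D1 had 14251 and 13516 in the controls and 14809 and 15120 in the knockouts. H2-K1 had 17448 and 16242 in the controls and 18154 and 18235 in the knockouts. For both genes the knockouts were above the controls by a small step, with log2 fold changes of 0.11 ± 0.05 SE (limma adjusted p = 0.365 for H2-D1 and 0.375 for H2-K1). Transcripts of these genes share sequence with other class I genes: 12.8% of the 50-base words of H2-D1 and 9.63% of those of H2-K1 also occur in another gene's transcripts, while B2m shares 0%.

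The nonclassical class I genes of the Q, T and M regions encode molecules with narrower roles. H2-T23 (ENSMUSG00000067212, chromosome 17, 36029773 to 36032855, minus strand) encodes the heavy chain of Qa-1, which presents class I leader peptides to the CD94-NKG2 receptors of natural killer cells. It had 1835 and 1647 in the controls and 2213 and 2071 in the knockouts. The ranges did not overlap, with 1741 ± 133 (SD, n = 2) against 2142 ± 100 (SD, n = 2). Control 3 was the lowest library (1647), and 14.5% of the gene's 50-base words also occur in another gene's transcripts. The log2 fold change of 0.30 ± 0.07 SE gave a limma adjusted p of 0.0907. That value was under 0.05 with DESeq2 on the recovered reads (0.0485) and without control 2 (0.0291).

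H2-T24 (chromosome 17, 36005695 to 36020560, minus strand) had the largest log2 fold change of the tested members. It had 25.5 and 24.4 in the controls and 51.0 and 51.8 in the knockouts, and the values within each genotype were close together. The log2 fold change was 1.01 ± 0.24 SE (limma adjusted p = 0.0976), or 2.02 times on the scale of normalized count + 1. H2-T22, a ligand of some gamma-delta T cell receptors, had 1820 and 1662 in the controls and 1958 and 1854 in the knockouts (0.13 ± 0.07 SE, limma adjusted p = 0.423). Of its 50-base words, 53.5% also occur in another gene's transcripts, chiefly those of H2-T10, so its count is uncertain. Summed over the T genes, the count was 3680 and 3334 in the controls and 4221 and 3976 in the knockouts, 1.17 times as high by the ratio of means.

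H2-Q6 and H2-Q7 both encode Qa-2, a lipid-anchored class I molecule. H2-Q7 had 98.1 and 73.1 in the controls and 146 and 116 in the knockouts (0.61 ± 0.20 SE, limma adjusted p = 0.209). H2-Q6 had 228 and 151 in the controls and 295 and 233 in the knockouts (0.50 ± 0.20 SE, limma adjusted p = 0.309). In both genes control 3 was lowest and knockout replicate 1 highest, and for H2-Q6 control 2 and knockout replicate 2 nearly met. Leaving out control 2 gave H2-Q6 an adjusted p of 0.0485. The genes share sequence, 35.0% of the 50-base words of H2-Q6 and 26.5% of those of H2-Q7 occurring in other genes, so reads could have moved between them in the authors' counting.

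The more abundant Q genes did not separate the genotypes. H2-Q2 had 4285 and 4202 in the controls and 4194 and 4264 in the knockouts, and its log2 fold change of -0.00 ± 0.05 SE had a 95% interval of -0.11 to 0.10. H2-Q4 had 1546 and 1428 in the controls and 1515 and 1529 in the knockouts (0.03 ± 0.06 SE). These genes share sequence too, 16.1% of the 50-base words of H2-Q2 and 36.4% of those of H2-Q4 occurring in other genes. H2-M3, which presents N-formylated peptides of bacteria and mitochondria, had 877 and 747 in the controls and 877 and 874 in the knockouts, control 3 alone being low (0.11 ± 0.09 SE). H2-M2 was low throughout, with 47.0 and 31.2 in the controls and 42.7 and 45.1 in the knockouts (0.19 ± 0.27 SE).

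Across the 12 tested class I chains (B2m and the H2-K, D, Q, T and M genes), 11 lay above 0, the median log2 fold change was 0.16 and 5 had an unadjusted p under 0.05 (41.7%, against 14.1% of all tested genes). Both knockouts exceeded both controls in 8 of the 12 (66.7%, against 22.0% of all tested genes), and H2-Q2, H2-Q4, H2-M2 and H2-M3 overlapped between genotypes. Control 3 was the lowest library in 11 of the 12, and it was lower than control 2 in all 12. Without control 3 the median was 0.07, with 8 of 12 above 0 and 2 at an unadjusted p under 0.05, and both knockouts exceeded the remaining control in 8 (against 36.7% of all tested genes) and lay under it in 3 (against 37.4%). Without control 2 it was 0.30, with 12 of 12 above 0. The summed count of the heavy chains, 24 genes including those under the filter, was 42469 and 39727 in the controls and 44256 and 44398 in the knockouts, a ratio of means of 1.08.

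**Figure D3:**
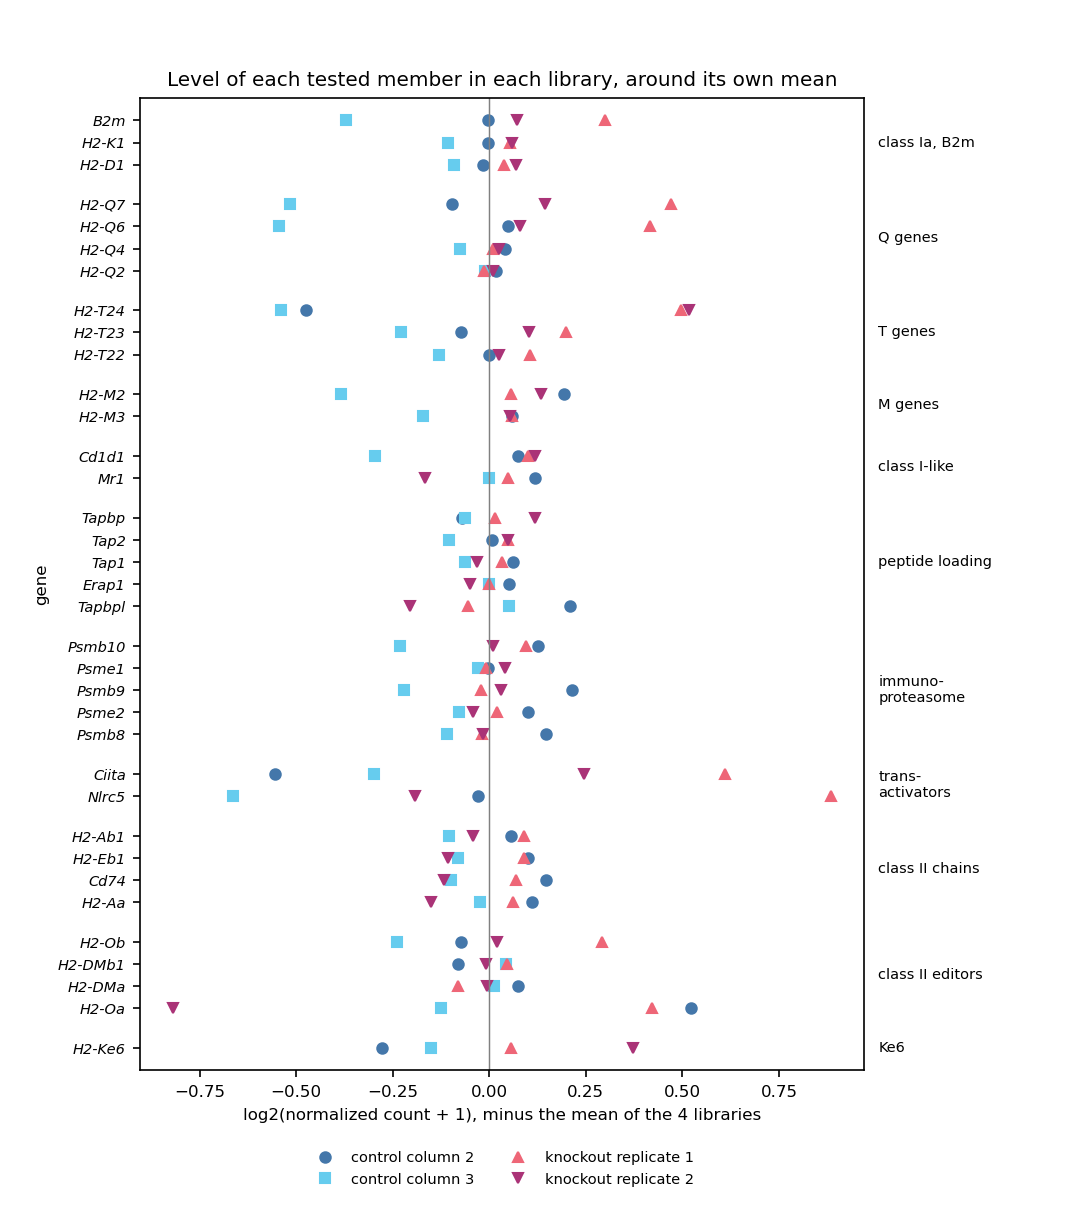
Log2(normalized count + 1) of each tested member in each library, minus the gene's mean over the 4 libraries, grouped by role (circles and squares are the controls, triangles the knockouts). Control 3 is the leftmost point in 22 of the 35 genes, including 11 of 12 class I chains, and the libraries of the class II chains overlap between genotypes.

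Of the class I-like molecules that bind other ligands, Mr1 presents vitamin B metabolites to MAIT cells and Cd1d1 presents lipids to NKT cells. Mr1 had 648 and 596 in the controls and 617 and 531 in the knockouts (-0.12 ± 0.10 SE), with overlapping ranges. Cd1d1 had 20.4 and 15.6 in the controls and 20.8 and 21.1 in the knockouts (0.22 ± 0.32 SE), control 3 again lowest.

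Peptide loading genes differed in direction, and none passed the test. Tapbp encodes tapasin, which bridges class I to the transporter and edits its peptides (chromosome 17, 33915899 to 33929292, plus strand). It had 5067 and 5100 in the controls and 5380 and 5780 in the knockouts, and its log2 fold change was 0.13 ± 0.05 SE (limma adjusted p = 0.298). Its exons overlap those of Zbtb22 on the same strand and of Gm19412 on the other. Tapbpl encodes the tapasin-related editor TAPBPR (chromosome 6, 125223933 to 125231860, minus strand). It had 2379 and 2132 in the controls and 1980 and 1784 in the knockouts, so the ranges did not overlap and the knockouts were the lower ones. Its log2 fold change was -0.26 ± 0.07 SE (limma adjusted p = 0.152), from 2255 ± 175 to 1882 ± 138 (SD, n = 2 each).

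The transporter subunits and the trimming peptidase showed small differences. Tap1 had 610 and 560 in the controls and 598 and 572 in the knockouts (0.00 ± 0.08 SE). Tap2 had 1608 and 1490 in the controls and 1656 and 1657 in the knockouts (0.10 ± 0.06 SE). Erap1, which trims peptides in the endoplasmic reticulum to class I length, had 4233 and 4085 in the controls and 4078 and 3942 in the knockouts (-0.05 ± 0.05 SE). The knockouts were above the controls for Tap2 and below them for Erap1. Exons of Tap2 overlap those of Gm15821, and exons of Erap1 those of Cast, each on the opposite strand. Summed over the 5 genes, loading stood at 13366 to 13897 in the 4 libraries.

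The immunoproteasome and its activator were nearly level. The catalytic subunits are Psmb8, Psmb9 and Psmb10, and Psme1 and Psme2 form the PA28 cap that opens the proteasome. Psmb8 had 542 and 453 in the controls and 483 and 483 in the knockouts (-0.04 ± 0.10 SE). Psmb9 had 263 and 194 in the controls and 223 and 231 in the knockouts (0.01 ± 0.15 SE). Psmb10 had 443 and 346 in the controls and 434 and 408 in the knockouts (0.10 ± 0.12 SE). In each of these 3 genes the knockout values lay between the control values. Psme1 had 1517 and 1489 in the controls and 1510 and 1564 in the knockouts (0.03 ± 0.06 SE), and Psme2 had 1785 and 1577 against 1689 and 1619 (-0.02 ± 0.07 SE). The 95% intervals of the 5 genes ran from -0.34 to 0.39, so differences of 0.790 to 1.31 times were within them. Tap1 and Psmb9 have overlapping exons on opposite strands, and without a stated strand setting their shared reads cannot be told apart.

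The transactivators were among the least abundant members. Ciita, the master regulator of class II transcription (chromosome 16, 10480059 to 10528418, plus strand), had 19.4 and 23.4 in the controls and 44.8 and 34.5 in the knockouts. The ranges did not overlap, and the log2 fold change was 0.85 ± 0.28 SE (limma adjusted p = 0.214). Its exons overlap those of Dexi on the opposite strand. Nlrc5, the corresponding transactivator of class I genes, had 39.8 and 25.3 in the controls and 76.0 and 35.5 in the knockouts. Here knockout replicate 1 alone was high and the ranges overlapped (0.69 ± 0.37 SE, limma adjusted p = 0.464).

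The class II chains, which Ciita is known to control, had overlapping ranges in all 4 tested genes. Cd74, the invariant chain, had 8767 and 7394 in the controls and 8309 and 7309 in the knockouts (-0.05 ± 0.09 SE). H2-Aa, the alpha chain of I-A (chromosome 17, 34282744 to 34287823, minus strand), had 3344 and 3048 in the controls and 3235 and 2792 in the knockouts (-0.09 ± 0.08 SE). Its partner H2-Ab1 had 2493 and 2228 in the controls and 2551 and 2330 in the knockouts (0.05 ± 0.07 SE). H2-Eb1, the beta chain of I-E, had 2941 and 2593 in the controls and 2923 and 2549 in the knockouts (-0.02 ± 0.08 SE). In each genotype the second library named was the lower one for all 4 genes. The median log2 difference was -0.17 between the controls and -0.19 between the knockouts. Among all tested genes, 49.2% were lower in control 3 than in control 2. In knockout replicate 2, 49.9% were lower than in knockout replicate 1. Of 10 tested macrophage markers, those counts were 6 and 1 (C1qa). The part of macrophages in the class II values was not tested. The 95% intervals of the 4 genes ran from -0.26 to 0.21. H2-Ea, the alpha chain of I-E and outside the members because the table calls it a polymorphic pseudogene, had 0 reads in every library. C57BL/6 mice are known to lack a working Ea promoter.

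The class II peptide editors were low and did not separate the genotypes beyond their spread. H2-DM removes the invariant chain peptide from class II, and H2-O restrains H2-DM. H2-DMa had 233 and 223 in the controls and 209 and 221 in the knockouts (-0.09 ± 0.12 SE), and H2-DMb1 had 84.8 and 92.5 against 92.6 and 89.2 (0.04 ± 0.17 SE). H2-Oa had 11.2 and 6.82 in the controls and 10.4 and 3.84 in the knockouts (-0.40 ± 0.55 SE), and H2-Ob had 14.3 and 12.7 against 18.7 and 15.3 (0.31 ± 0.34 SE). The knockouts lay below the controls for H2-DMa and above them for H2-Ob, by less than the SE of the fold change in each case. Exons of H2-DMa overlap those of Brd2 on the opposite strand. The remaining tested member, H2-Ke6, carries the prefix because of its place in the MHC region and encodes a steroid dehydrogenase (Hsd17b8). It had 20.4 and 22.4 in the controls and 26.0 and 32.6 in the knockouts (0.43 ± 0.29 SE), and 70.5% of its 50-base words are shared with another gene, chiefly Gm20427.

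**Figure D4:**
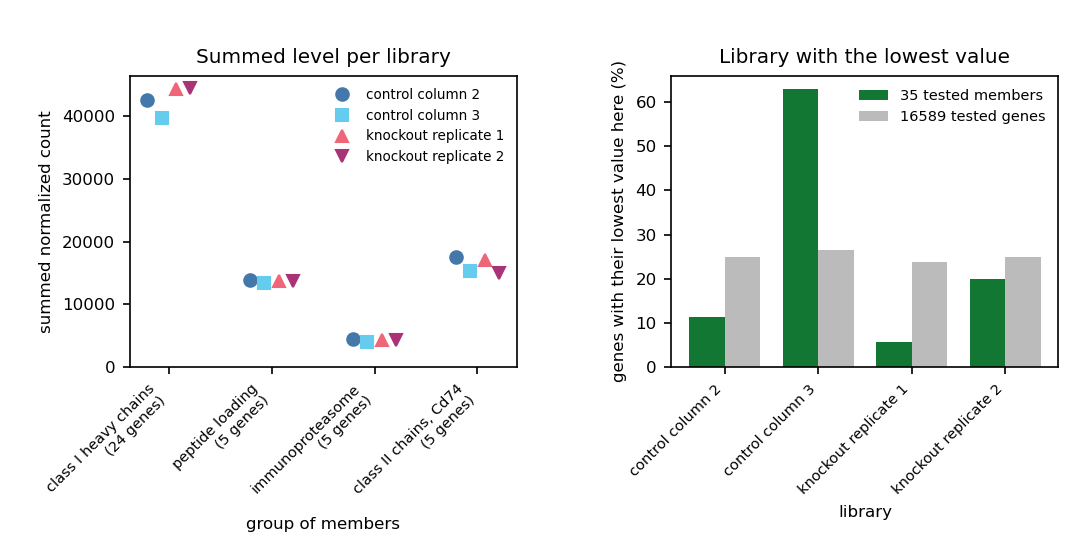
Left, summed normalized count of 4 groups of members in each library. Right, share of genes with their lowest value in each library, for the 35 tested members (green) and all 16589 tested genes (grey). Class I heavy chain sums were 42469 and 39727 in the controls and 44256 and 44398 in the knockouts, and control 3 held the lowest value in 62.9% of members against 26.4% of all tested genes.

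The 15 members under the filter were at or near 0. No read was assigned in any library to 8 of them (H2-T3, H2-M1, H2-M10.2, H2-M10.3, H2-M10.4, H2-M10.5, H2-M10.6 and H2-M11), which allows up to 3 reads in each library by counting error. Most of these M genes are known from the vomeronasal organ. H2-Q1, H2-Q10, H2-M10.1, H2-M5 and H2-M9 had 8, 2, 6, 1 and 2 reads in all 4 libraries together. The class II genes H2-Eb2 and H2-DMb2 had 15 and 21 reads together, with 2 to 7 reads in any library.

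Genes around the members were read from lists of the same pathway. Of 13 tested regulators of class I and of interferon signalling, 0 were higher (background 0.247% of tested genes) and 1 was lower (background 0.374%). The lower one was Irf1, a transcription factor that interferon-gamma induces and that acts on class I and immunoproteasome promoters. Irf1 had 4008 and 4224 in the controls and 2928 and 3066 in the knockouts. It fell by 0.46 ± 0.05 SE on the log2 scale (limma adjusted p = 0.0188), and the knockout values were close together and well under the controls. Without a filter on low values its limma adjusted p was 0.217 and without the mean-variance trend 0.324. Those settings called almost no genes: 1 higher and 1 lower of 27523 without the filter, and none without the trend. The median of the 13 was -0.04, with 6 above 0 and 7 below. Of the 13, 4 had an unadjusted p under 0.05, against 14.1% of all tested genes (Irf1, Ifngr2, Jak1 and Jak2, each below 0).

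None of the other pathway genes passed the limma test, in 39 tested genes of 6 lists. Of those 39, 6 had an unadjusted p under 0.05, a share near the 14.1% of all tested genes. Among 7 folding partners of class I in the endoplasmic reticulum, the chaperone Calr had 99178 and 102994 in the controls and 89529 and 93094 in the knockouts (-0.15 ± 0.06 SE, limma adjusted p = 0.312), and the oxidoreductase Pdia3 differed by -0.04 ± 0.06 SE. Among 6 standard proteasome genes, the activators Psme4 and Psme3 differed by -0.02 ± 0.06 SE and -0.06 ± 0.05 SE. Among 7 factors known to bind class II promoters, Creb1 differed by -0.04 ± 0.07 SE and Nfyb by -0.05 ± 0.07 SE. In the same list Nfya, the subunit of the CCAAT-binding factor NF-Y that contacts DNA, had 1100 and 1048 in the controls and 831 and 907 in the knockouts (-0.31 ± 0.07 SE, limma adjusted p = 0.0989). Rfx5, a subunit of the factor that binds the X box of class II promoters, differed by -0.16 ± 0.07 SE (limma adjusted p = 0.338). Nfya and Rfx5 are the 2 of the 7 with an unadjusted p under 0.05 and were named after their values were seen.

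Of 8 endosomal proteases and processing genes, Ctsb differed by 0.01 ± 0.05 SE and Ctsl by 0.04 ± 0.05 SE. Of 6 costimulatory and checkpoint ligands, Cd274, the PD-L1 checkpoint ligand, had 1369 and 1366 in the controls and 1298 and 1258 in the knockouts (-0.10 ± 0.06 SE, limma adjusted p = 0.530), and the adhesion ligand Icam1 differed by 0.12 ± 0.12 SE. Of 5 class I-like genes without the H2 name, the iron regulator Hfe differed by -0.08 ± 0.08 SE and the neonatal Fc receptor Fcgrt by 0.05 ± 0.14 SE. Each of these 3 lists held 1 gene at an unadjusted p under 0.05, also named after the values were seen. The protease Ctsz differed by 0.15 ± 0.06 SE, the costimulatory ligand Cd86 by -0.67 ± 0.19 SE and Procr by 0.67 ± 0.24 SE (limma adjusted p = 0.318, 0.156 and 0.255).

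Markers of other cell types were read beside the members, since immune cells are known to carry both class I and class II. The cells that gave the member reads cannot be told apart in bulk RNA. Of the 11 macrophage markers reported here, 10 were tested, their median log2 fold change was 0.01, and their summed count was 5383 and 4911 in the controls and 5095 and 5199 in the knockouts. None of the 10 was called by limma (0 of 10). An unadjusted p under 0.05 was found in 2, Cd14 below 0 and Fcgr1 above 0, against 14.1% of all tested genes. Of 8 dendritic cell markers 3 were tested, with sums of 321 and 286 in the controls and 373 and 308 in the knockouts. Of 5 markers of all leukocytes 5 were tested, with sums of 999 and 863 against 1065 and 976. In each of these 3 lists control 3 had the lowest sum, as it did for the class I heavy chains, and their part in the member values was not tested.

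Few lymphocyte markers passed the filter. Of 6 B cell markers 2 were tested, with sums of 262 and 271 in the controls and 751 and 382 in the knockouts, and the defining genes Ms4a1 and Pax5 had 3 reads or fewer in every library. The sums came from Cd79a, with 162 and 196 in the controls and 184 and 222 in the knockouts, and from Ighm, the immunoglobulin mu chain, which differed more and had 93.0 and 69.2 in the controls and 559 and 152 in the knockouts (1.85 ± 0.47 SE, limma adjusted p = 0.117). Of 8 T and NK cell markers 1 was tested, with sums of 26.6 and 11.7 against 57.2 and 34.5, and Klrb1c was at 0 in all libraries. The sums of both lymphocyte lists were higher in both knockouts than in both controls. The same order was seen in 14 of the 35 tested members and in 22.0% of all tested genes. The part of lymphocytes in the member values was not tested. Acinar markers, from the digestive tissue around the islets, had sums of 13309 and 15058 (controls) and 6490 and 11290 (knockouts). All 10 of 10 tested genes lay below 0 and 0 were called by limma. An unadjusted p under 0.05 was found in 10, against 14.1% of all tested genes. Stellate cell markers had sums of 12124 and 10399 against 13192 and 12560, with 8 of 8 tested genes above 0 and a median of 0.71. Of these, 1 was called higher (Dcn, background 0.247% of tested genes) and 6 had an unadjusted p under 0.05 (background 14.1%). Endothelial cells are known for high class I, and their markers had sums of 25056 and 21907 in the controls and 23693 and 25410 in the knockouts. Of the 7 endothelial markers tested, 0 were called by limma and 0 had an unadjusted p under 0.05, with a median of 0.09. Control 3 had the lowest sum in both of these lists too, and their part in the class I values was not tested.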

How the data were processed

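Poly(A)-enriched RNA of 4 pools of islets (2 mice each) was extracted on RNeasy Plus Mini columns and sequenced, per the labels' protocols. Tools named in the submitters' processing notes, with no role given, are STAR 2.5.1b, featureCounts 1.6.0, CASAVA 1.4 and DESeq2 1.22.2, and the build is GRCm38. The annotation, the strand setting and the read length are not given in the sources used here. Each gene has 1 signal per library as the authors deposited it, which is its read count scaled by a factor of the library, per the file headers. Division by what 1 read is worth returned whole reads in 100% of cases (within 0.01). The authors also deposited, per the file headers, a log2 fold change with its standard error, a score (their quotient) and a p-value and adjusted p-value per gene, of which only adjusted p-values were used. The names of the knockout columns match their samples. Control columns 2 and 3 were matched to the group only, because the labels number the controls 1 and 2. Per-sample columns of other samples numbered 0.

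The filter (10 or more in 2 or more libraries) left 16589 genes, which were tested with limma 3.58.1 (R 4.3.3) on log2(value + 1), with a mean-variance trend, two-sided, Benjamini-Hochberg at 0.05. The pseudocount understates the change of low genes. edgeR 4.0.16 (quasi-likelihood) and DESeq2 1.42.0 were run on the recovered reads, as alternatives. The steps were tested on simulated data. Samples were taken as replicates as labelled, and chi-square per degree of freedom was 10.1 between the controls and 9.85 between the knockouts, so neither pair is a single library under 2 names. Each pool mixes 2 mice, so p-values measure the spread between pools.

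The members, the gene lists and the tests were chosen with earlier results of these data known. All tested members are named. A pathway list adds its called genes, or its 2 most abundant ones if none was called. Other list genes, marker genes and H2-Ea were named after their values were seen. Some marker genes are not reported here. Of 10 endosomal symbols, 8 were found. Lengths and coordinates are from GENCODE M21 on GRCm38, which held 99.5% of the table's identifiers, and promoters from RefSeq (GRCm38.p6). Exons of 10 tested members overlap those of another tested gene. Shared sequence was counted as words of 50 bases found in transcripts of another gene. Alternatives were pseudocounts of 0.5 and 5, no filter, a filter at 50 or on the mean, other scalings, limma without trend or robust, the count tests and each library left out.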

Additional observations from a re-analysis of the deposited data

How the results depend on the processing

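The count of members called higher was 0 under 12 of the 15 alternatives, 1 with DESeq2, and 0 to 3 with a library left out (3 without control 2 and 1 without knockout replicate 2). The count called lower was 0 under all 15. The members' median log2 fold change ranged from -0.0012 (without control 3) to 0.15 (without control 2), and from 0.04 (filter at 50, 28 members) to 0.12 (upper-quartile scaling) with all libraries. Over the 35 members and the alternatives, 485 of 517 values kept their direction and side of the threshold, 5 passed it and 27 changed sign, in 15 genes. With all libraries kept, the sign changed for H2-Q2 (0.014) and H2-Eb1 (0.0018) with upper-quartile scaling, Tap1 (-0.0059) with a common total, and Psmb9 with edgeR (-0.0014) and DESeq2 (-0.0049). With a library left out, where the lone library of its group is assumed to vary like the other group, log2 fold changes that changed sign ran over these ranges: H2-Q2 -0.019 to 0.0094, H2-Q4 -0.022 to 0.092, H2-M2 -0.098 to 0.48, H2-M3 -0.0012 to 0.23, Tap1 -0.060 to 0.063, Psmb10 -0.075 to 0.28, Psmb8 -0.16 to 0.093, Psmb9 -0.21 to 0.23, Psme2 -0.11 to 0.068, Cd74 -0.17 to 0.076, H2-Aa -0.19 to 0.019, H2-Ab1 -0.032 to 0.13, H2-Eb1 -0.12 to 0.082, H2-DMb1 -0.026 to 0.099, H2-Oa -1.02 to 0.22, Psme4 -0.098 to 0.052, Creb1 -0.13 to 0.041, Nfyb -0.14 to 0.032, Ctsb -0.040 to 0.059, Hfe -0.15 to 0.00061 and Fcgrt -0.078 to 0.17. Without the mean-variance trend no gene of the table was called, so the count of 0 says nothing about stability there. Without a filter on low values, 1 gene of 27523 was called higher and 1 lower, so the count of 0 says little there. The filter at 50 could not test 7 members, and the filter on the mean dropped H2-Oa. Members without a DESeq2 adjusted p had no side of the threshold there. Among the 517 values they were counted as unchanged where the sign held. The cause of these changes was not tested. No paired analysis was possible because the control columns are numbered 2 and 3 and the knockout columns 1 and 2, so they share fewer than 2 numbers.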

Other observations

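H2-K2, a neighbour of H2-K1 that the table classes as a transcribed unprocessed pseudogene and that is therefore not a member, was singled out after its values were seen. It had normalized counts of 627 and 614 in the controls and 375 and 487 in the knockouts, so both knockouts lay below both controls, opposite in direction to H2-K1. Its log2 fold change was -0.54 ± 0.12 SE, with a limma adjusted p of 0.0862. It passed 0.05 in 2 of 15 alternatives (DESeq2, adjusted p = 0.0325, and without knockout replicate 2, adjusted p = 0.0036), and its adjusted p ranged up to 0.421. H2-T10, a polymorphic pseudogene that shares sequence with H2-T22, had 38.8 and 35.1 in the controls and 40.6 and 58.5 in the knockouts (0.39 ± 0.26 SE). Of the 11 H2- rows that are not protein coding, 4 passed the filter and 5 had no read in any library.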
